A study of Bos taurus with 8 samples.

Results

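The miR-183 cluster comprises bta-miR-183, bta-miR-96 and bta-miR-182 (here miR-183, miR-96 and miR-182), and all 3 members were found by name among the 1028 bovine miRNAs of the deposited table. They were measured in extracellular vesicles (EVs) of follicular fluid (FF), the fluid that surrounds the oocyte in the ovarian follicle. The fluid came from open, cycling Bos taurus crossbreed beef cows, aspirated from the same herd in summer (SUM, 4 libraries) and in winter (WIN, 4 libraries). In both seasons the cows had received a progesterone insert, a GnRH analog and FSH, so every library describes stimulated follicles. Each library was made from a pool of 2 cows. According to the methods the same animals served in summer and winter, without a record of how the pools correspond, and the sources differ on whether the winter collection was in January or February. The season groups differ in temperature, day length and whatever else changes with the season, and these cannot be told apart here. In such bulk samples, fewer vesicles from a cell type and less of a miRNA per vesicle cannot be told apart either.

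The 3 miRNAs are cut from neighbouring hairpins of one primary transcript. In the RefSeq annotation of the bovine assembly ARS-UCD2.0, MIR182, MIR96 and MIR183 follow each other with no other annotated gene between them, and NRF1 is the next gene on the MIR182 side. This assembly differs from the ARS-UCD1.2 of the authors and was used for gene order only. The cluster is best known from sensory organs, where it is abundant in hair cells and photoreceptors, and changes in the seed of miR-96 cause hearing loss in mice and humans. The seed, a short stretch near the start of a mature miRNA, sets which messages it represses. The seeds of miR-96 and miR-182 are closely alike and that of miR-183 is related. In cultured bovine granulosa cells the cluster is known to promote proliferation by repressing FOXO1, a transcription factor that holds back the cell cycle.

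The 8 libraries held 214004 to 1689467 miRNA reads, recovered from the steps of the deposited values (TMM-adjusted counts per 1000000 reads, CPM). SUM replicate 3 and WIN replicate 1 were the shallowest of their seasons, and 1 read in them was worth 4.02 and 3.83 CPM. miR-202, known as a gonadal miRNA, was present at 7682 ± 2820 CPM in SUM against 4137 ± 1087 in WIN (n = 4 each, SD). Over the 243 miRNAs that averaged more than 10 CPM, limma called 13 higher (5.35%) and 6 lower (2.47%) in SUM, 7.82% in all, at a fold over 1.5 with an adjusted p under 0.1. None of the 3 cluster members was among these 19. The CPM of the seasons did not overlap for 16.0% of the 243, and for 7.82% the SUM libraries were the lower ones, while it overlapped for each of the 3 members.

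The cluster was of moderate abundance in FF-EVs and had the same order of members in every library, with miR-183 first, miR-182 second and miR-96 far below. By mean CPM over all libraries, miR-183 stood at rank 77, miR-182 at rank 95 and miR-96 at rank 185 of the 243. Neither miR-183 nor miR-182 could be separated by season, while miR-96 had a mean 2.69 times higher in WIN than in SUM on few reads and missed the threshold.

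miR-183, the most abundant member, had 309.6, 426, 298 and 541 CPM in SUM replicates 1 to 4. In WIN replicates 1 to 4 it had 429, 326, 539 and 601 CPM. The seasons overlapped widely, and the lowest libraries were SUM replicates 3 and 1 and the highest was WIN replicate 4. SUM averaged 394 ± 114 CPM against 474 ± 122 for WIN (n = 4, SD, two-sided exact permutation p = 0.29). The log2 fold change of SUM over WIN on the log2(CPM + 1) scale was -0.27 by limma (SE 0.30, adjusted p = 0.61).

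miR-182, the second member, had 126, 234, 217 and 340.4 CPM in SUM, against 203, 214, 313 and 385 in WIN (replicates 1 to 4). SUM replicate 1 was the lowest library and WIN replicate 4 the highest, and the others were interleaved. SUM averaged 229 ± 88.1 CPM against 279 ± 86.3 for WIN (n = 4, SD, exact permutation p = 0.49), and limma gave a log2 fold change of -0.32 (SE 0.35, adjusted p = 0.61).

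miR-96 had 10.5, 8.26, 20.1 and 27.6 CPM in SUM, against 68.9, 25.3, 36.3 and 48.5 in WIN (replicates 1 to 4). These values rest on 5, 6, 5 and 22 reads in SUM and on 18, 20, 64 and 28 reads in WIN. The 3 lowest libraries were SUM and the 3 highest were WIN, and the seasons overlapped only in that SUM replicate 4 lay above WIN replicate 2. The Poisson interval (95%) of the reads ran from 6.53 to 46.9 CPM in SUM replicate 3 and from 28.0 to 46.4 CPM in WIN replicate 3, the deepest library. These intervals cover counting error only, not the spread between pools. They may be too narrow even for that, since amplified reads are not independent molecules. SUM averaged 16.6 ± 8.97 CPM against 44.8 ± 18.7 for WIN (n = 4, SD, exact permutation p = 0.057, where the smallest possible is 0.029). By limma the log2 fold change was -1.43 (SE 0.50), which did not pass the thresholds (adjusted p = 0.12). It passed with DESeq2 on the recovered reads (-1.46, adjusted p = 0.075) and after each library was rescaled to the same sum (-1.60, adjusted p = 0.088), and it did not with edgeR on the recovered reads (-1.43, adjusted p = 0.12).

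**Figure D1:**
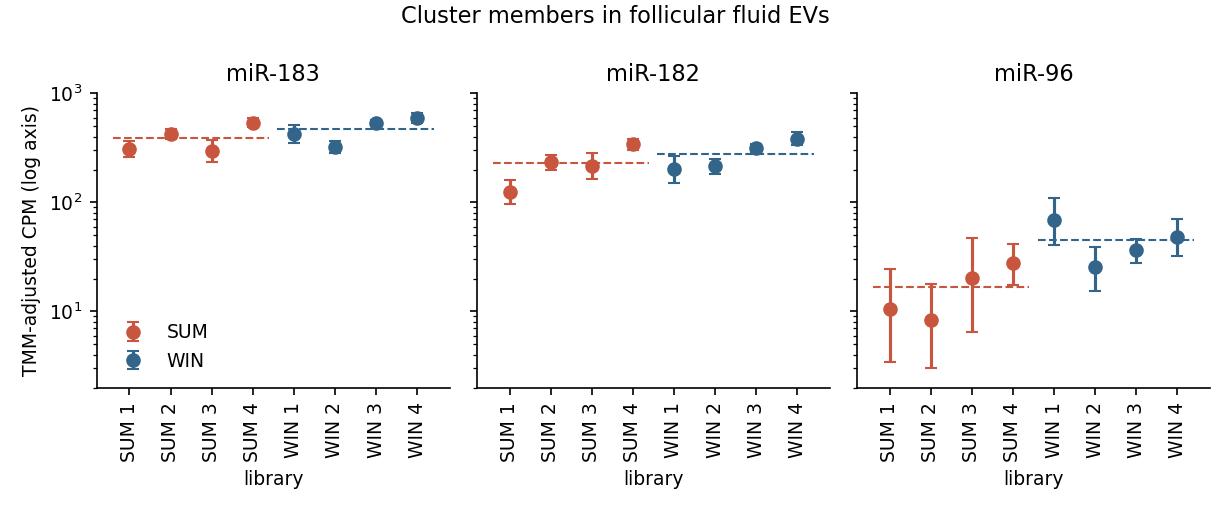
TMM-adjusted CPM (log axis) of miR-183, miR-182 and miR-96 in each of the 4 SUM and 4 WIN libraries. Bars are 95% Poisson intervals of the recovered reads and dashed lines are season means. The seasons overlap for miR-183 and miR-182, and for miR-96 the SUM mean is 16.6 and the WIN mean 44.8 CPM.

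Together the members reached 446, 668, 535 and 909 CPM in SUM, against 701, 565, 889 and 1035 in WIN (replicates 1 to 4). The cluster thus took 0.0412 to 0.0802% of the summed CPM in SUM libraries and 0.0610 to 0.107% in WIN libraries. Its summed CPM was 639 ± 202 in SUM and 797 ± 207 in WIN (n = 4, SD), and the seasons overlapped (exact permutation p = 0.26).

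Since the members share a transcript, their ratios within a library were compared next. A ratio of reads does not depend on how a library was scaled, while the log2 ratios tested here include the pseudocount of 1 CPM, which moves them toward 0 where miR-96 is low. For every 100 reads of miR-183 there were 40.5, 55.0, 73.0 and 62.9 reads of miR-182 in SUM and 47.3, 65.8, 58.0 and 64.0 in WIN (replicates 1 to 4). The log2 ratio of miR-182 to miR-183 was -0.82 ± 0.36 in SUM and -0.78 ± 0.21 in WIN (n = 4, SD, exact permutation p = 0.83). Its SD over all 8 libraries was 0.27, where read counting alone would give 0.18.

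miR-96 stood lower against both partners in SUM. For every 100 reads of miR-182 there were 8.33, 3.53, 9.26 and 8.12 reads of miR-96 in SUM and 34.0, 11.8, 11.6 and 12.6 in WIN (replicates 1 to 4). Every SUM library lay below every WIN library. The log2 ratio was -3.77 ± 0.60 in SUM and -2.65 ± 0.74 in WIN, a difference of -1.12 (n = 4, SD, exact permutation p = 0.029, adjusted p = 0.086 over the 3 ratios compared). Against miR-183 the log2 ratio was -4.59 ± 0.73 in SUM and -3.43 ± 0.55 in WIN, with an overlap between SUM replicate 3 and WIN replicate 3 (exact permutation p = 0.057, adjusted p = 0.086). Neither ratio passed the threshold of 0.05 after adjustment. As a background, of the ratios of all 242 other tested miRNAs to miR-182, 7.02% did not overlap between seasons in either direction. Those lower in SUM were 0.413%, which is miR-96 alone. For the ratios to miR-183 the shares were 9.50% and 0.826%, the latter being let-7e and miR-199b. Both references had lower means in SUM (log2 fold change -0.32 for miR-182 and -0.27 for miR-183), which moves ratios to them upward in SUM. In CPM alone, 7.82% of the 243 lay lower in SUM without overlap, and miR-96 was not among them.

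miR-96 held 2.35, 1.24, 3.76 and 3.04% of the cluster reads in SUM and 9.84, 4.48, 4.08 and 4.69% in WIN (replicates 1 to 4). No SUM library reached the lowest WIN library, but the gap between SUM replicate 3 and WIN replicate 3 was narrower than their binomial intervals (Clopper-Pearson, 95%, 1.23 to 8.56% and 3.16 to 5.19%). The share was 2.60% ± 1.07 in SUM and 5.77% ± 2.72 in WIN (n = 4, SD, exact permutation p = 0.029, the lowest value possible). It is built from the same reads as the ratios and is no separate evidence. WIN replicate 1 had the highest share of all libraries and was also shallow. Without it the difference between the seasons was -1.82 instead of -3.18 percentage points (exact permutation test, p = 0.057), and the remaining libraries still did not overlap. The difference was -2.21 points without the shallowest library of each season (exact permutation test, p = 0.10, the lowest value with 3 against 3). With any one SUM library removed, the same exact test gave p = 0.057 to 0.086.

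**Figure D2:**
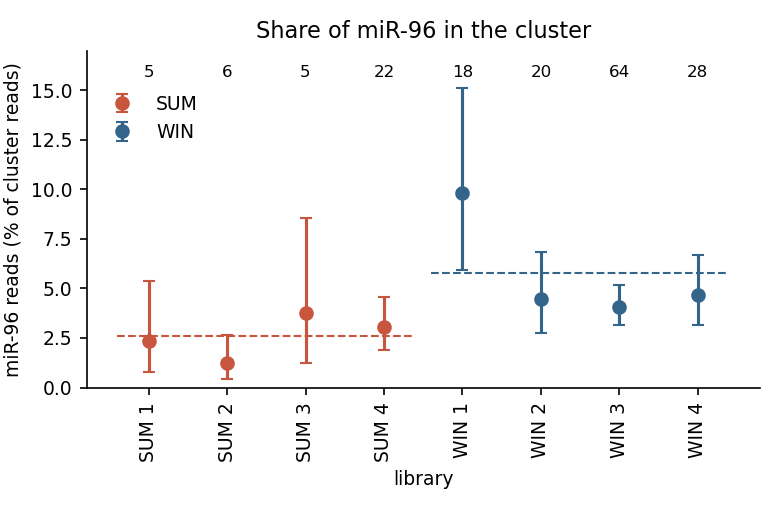
Reads of miR-96 as a percent of all cluster reads in each of the 4 SUM and 4 WIN libraries. Bars are 95% Clopper-Pearson intervals, numbers above are miR-96 reads and dashed lines are season means. The SUM libraries lie between 1.24 and 3.76% and the WIN libraries between 4.08 and 9.84%.

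The share of miR-182 in the cluster reads was 35.3% ± 5.28 in SUM and 34.8% ± 4.06 in WIN, and that of miR-183 was 62.1% ± 5.93 and 59.4% ± 1.80 (n = 4, SD, exact permutation p = 0.91 and p = 0.46). The seasons overlapped for both.

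Over the 8 libraries, miR-183 and miR-182 varied together on the log2(CPM + 1) scale (Pearson's r = 0.85, exact permutation p = 0.0075, adjusted p = 0.023 over 3 pairs). Spearman's rho was 0.76 (exact permutation p = 0.037, adjusted p = 0.11). Without the libraries farthest from the median of miR-183, WIN replicate 4 and SUM replicate 3, r was 0.89, and with the season means subtracted it was 0.83. For miR-183 and miR-96 r was 0.51 and rho 0.67 (exact permutation, p = 0.20 and p = 0.083, adjusted p = 0.22 and p = 0.12), and r was 0.41 without these libraries. For miR-96 and miR-182 r was 0.49 and rho 0.29 (exact permutation, p = 0.22 and p = 0.50, adjusted p = 0.22 and p = 0.50). That r rose to 0.94 without WIN replicate 1 and SUM replicate 2, so it rests on which libraries are included. Whether the correlation with miR-182 differed from those with miR-96 was not tested.

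**Figure D3:**
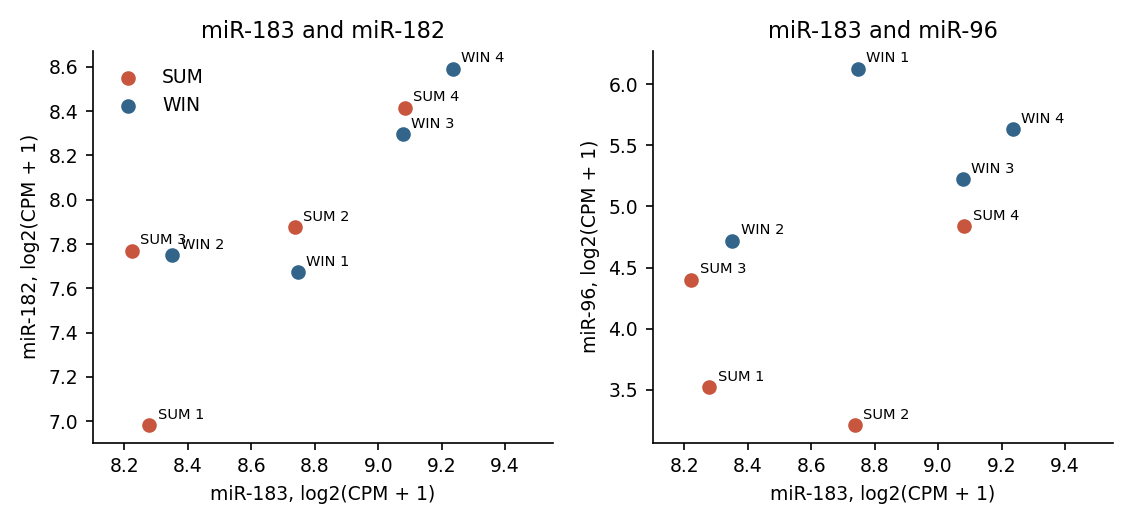
miR-182 (left) and miR-96 (right) against miR-183 in log2(CPM + 1), with 1 point per library for the 4 SUM and 4 WIN libraries. miR-182 rises with miR-183 (r = 0.85), while miR-96 is more scattered (r = 0.51), with WIN replicate 1 at the top and SUM replicate 2 at the bottom.

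Of the 242 other tested miRNAs, miR-183 had the highest correlation with miR-182. With miR-183, miR-182 and miR-28 were tied at the top (r = 0.85 each). The median r of all 242 was 0.068 for miR-183, 0.053 for miR-182 and -0.083 for miR-96. Next to miR-183 after this pair came miR-375 (r = 0.81), and next to miR-182 came miR-28 (r = 0.84) and miR-200c (r = 0.70). miR-375 and miR-200c are known from epithelial cells, but no other miRNA of the epithelial list used below was among these top ranks. A tie of the cluster to epithelial cells was not tested. The miRNAs most like miR-96 were miR-425-5p (r = 0.92), miR-181a (r = 0.90) and miR-379 (r = 0.87), while its partners miR-183 and miR-182 ranked 35 and 37. Like miR-96, these most similar miRNAs had negative log2 fold changes (-0.80, -1.11 and -0.98, adjusted p = 0.22, 0.068 and 0.11 from limma). Of these only miR-181a was called. Season means were not subtracted here, so such an r includes any season difference. All these values describe 8 libraries that share their depth and scaling, and the top ranks were picked among 242.

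The partner ratios were set beside those of other miRNA clusters. Of 32 listed pairs, 29 had both miRNAs tested, and some of them also have gene copies elsewhere. The SD of the log2 ratio over 8 libraries ranged from 0.19 for miR-17-5p and miR-20a to 1.28 for miR-143 and miR-145, with a median of 0.66, that of miR-200c and miR-141. miR-183 and miR-182, at 0.27, thus lay near the low end, and only 2 of the 29 pairs had a lower SD. In 3 of the 29 pairs r was higher. The SD over 8 libraries includes any season difference. Within seasons it was 0.30 for miR-183 and miR-182. For miR-27b and miR-24-3p it was 0.24 within seasons and 0.44 over all libraries, so the rank depends on this choice. The pairs of miR-96 lay above the median at 0.86 each, of which read counting alone would give 0.46 and 0.47. In 6 of the 29 pairs (20.7%) the log2 ratio did not overlap between seasons, so this is not rare among the listed pairs. The pairs are not independent, since some share a miRNA, such as miR-19a. Some of the 6 also hold a miRNA that was called by itself (miR-24-3p, miR-19a or miR-200a).

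**Figure D4:**
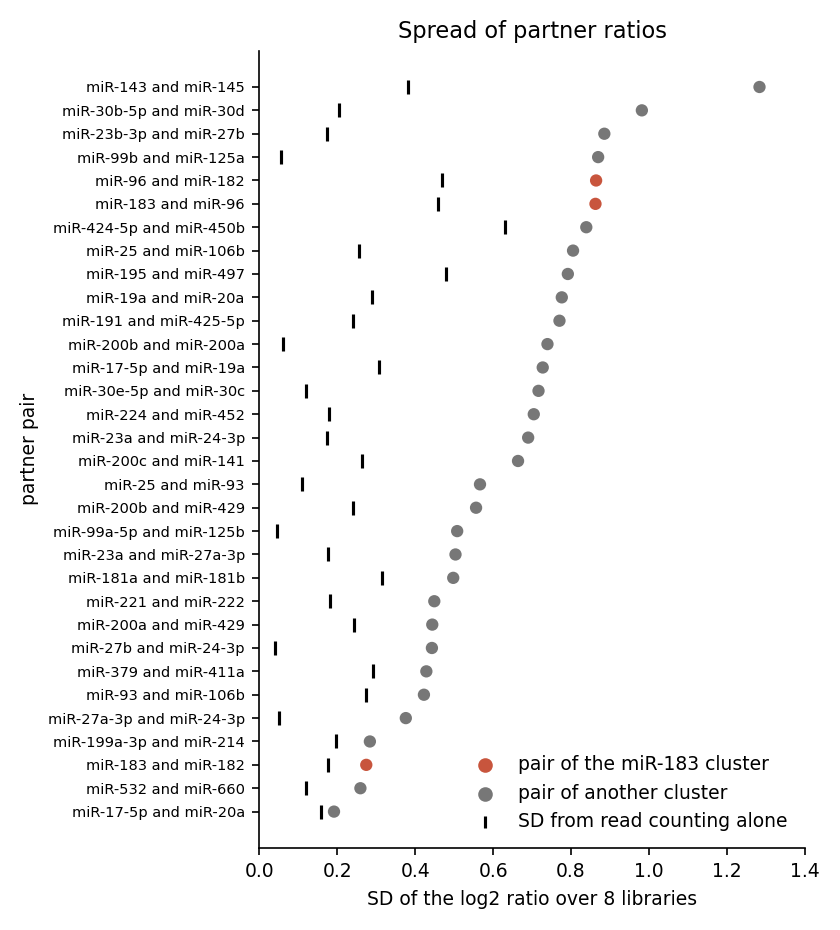
SD of the log2 ratio of clustered miRNA pairs over the 8 libraries, for the 3 pairs of the miR-183 cluster and 29 pairs of other clusters. Ticks mark the SD that read counting alone would give. miR-183 and miR-182 (0.27) sit near the low end and both pairs with miR-96 (0.86) near the high end.

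miR-1271 is known to share its seed with miR-96 and is encoded elsewhere in the genome. It had 157, 150.1, 105 and 128 CPM in SUM, against 26.8, 159.7, 128 and 109 in WIN (replicates 1 to 4), and so was more abundant than miR-96 in every library but WIN replicate 1. There the order was turned, with 7 reads of miR-1271 and 18 of miR-96. Its log2 fold change was 0.59 by limma (SE 0.49, adjusted p = 0.51), and 0.03 without WIN replicate 1 (adjusted p = 0.98).

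Of 5 other miRNAs known to repress FOXO1 in human endometrial cancer cells, 4 were tested and none was called higher or lower. The median of their log2 fold changes was 0.35, beside 0.02 over all 243. miR-27b, the most abundant, had 12269 ± 3240 CPM in SUM against 9141 ± 3088 in WIN, and miR-27a-3p had 4274 ± 1441 against 2755 ± 897 CPM (n = 4, SD). Their log2 fold changes were 0.45 and 0.62 (adjusted p = 0.36 and 0.25 from limma). For miR-186 it was 0.25 (adjusted p = 0.66), turning to -0.059 without the shallowest library of each season. The remaining tested one, miR-9-5p, which was added after its values were seen, went the other way, at 751 ± 666 CPM in SUM against 1090.0 ± 1275 in WIN (log2 fold change -0.27, adjusted p = 0.89).

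Markers of cells whose vesicles the fluid could hold were read beside these values. Over all 243 tested miRNAs, 5.35% were called higher and 2.47% lower in SUM. Whether any list held more calls than these shares was not tested. Of 7 tested epithelial miRNAs, 1 was higher (miR-200a, log2 fold change 1.36, adjusted p = 0.062 from limma), none was lower and 6 were not called. Of those not called, miR-375 had the opposite sign (-0.32). The others were miR-205 (1.13), miR-429 (0.90), miR-141 (0.29), miR-200b (0.15) and miR-200c (0.03). The summed level of the epithelial list was 7993 to 17578 CPM in SUM and 7544 to 12583 CPM in WIN. Of the endothelial miRNAs miR-126-3p was lower in SUM (-1.02, adjusted p = 0.094 from limma). The other arm, miR-126-5p, was not called and had the opposite sign (0.12, adjusted p = 0.90 from limma). Their sums, mostly miR-126-3p, were 1065 to 2418 CPM in SUM and 2290 to 3595 CPM in WIN. Of 5 listed white blood cell miRNAs 3 were tested. Among these 1 was higher (miR-142-5p, 1.13, adjusted p = 0.062 from limma). The 2 not called had opposite signs, with miR-150 at 0.75 and miR-155 at -0.18 (adjusted p = 0.53 and 0.79 from limma). The other arm, miR-142-3p, and miR-223 did not pass the filter of 10 CPM, and both had a lower mean in SUM. The list sums were 728 to 1167 CPM in SUM and 528 to 777 CPM in WIN. The stromal miRNAs had 1 lower (miR-199b, -1.67, adjusted p = 0.058 from limma) and 5 not called. Those not called had both signs, with miR-214 at 0.35, miR-143 at 0.08, miR-199a-3p at 0.0007, miR-199a-5p at -0.38 and miR-145 at -0.48. The stromal sums were 39483 to 57540 CPM in SUM and 33074 to 59083 CPM in WIN. Of the gonadal and granulosa cell miRNAs (miR-202, miR-224 and miR-132 tested) none was called, with sums of 6444 to 13440 CPM and 4024 to 6702 CPM. The CPM of miR-202 did not overlap between seasons, which held for 16.0% of the 243. The log2 fold change of miR-202, 0.87 (adjusted p = 0.11), became a call with edgeR (adjusted p = 0.075, but 0.11 without the filter) and with DESeq2 (adjusted p = 0.042). In limma it became a call with the replicate number as a block (adjusted p = 0.064) and at a filter of 50 CPM (adjusted p = 0.095). The same held without the shallowest library of each season (adjusted p = 0.089) and without SUM replicate 3 (adjusted p = 0.070). In limma miR-202 stayed uncalled without the filter (adjusted p = 0.22), without the trend (0.19), after rescaling (0.11) and with pseudocounts of 0.5 and 5 CPM (0.12 and 0.11). It also stayed uncalled without any other single library (adjusted p up to 0.27 from limma). Of the red blood cell miRNAs neither miR-451 nor miR-486 (log2 fold change 0.77, adjusted p = 0.36) was called, although miR-486 was higher in SUM without the shallowest library of each season (1.58, adjusted p = 0.027), and the sums were 5262 to 12731 CPM and 2439 to 25918 CPM. WIN replicate 1, the library with the highest level and share of miR-96, had the highest red blood cell sum of all libraries. It also had the lowest gonadal (4024 CPM), stromal (33074 CPM), white blood cell (528 CPM) and FOXO1 repressor sum (11751 CPM). The part of these in the miR-96 values was not tested. The calls of miR-200a and miR-142-5p ended without SUM replicates 2 or 4 or without any of WIN replicates 2, 3 and 4 (adjusted p = 0.10 to 0.18), and the call of miR-199b ended in the same cases except WIN replicate 3. The call of miR-126-3p, whose seasons overlapped, ended in these 5 cases and without SUM replicate 1 (adjusted p up to 0.20), with edgeR (adjusted p = 0.12), without the filter (adjusted p = 0.13) and without the trend (adjusted p = 0.15). None of the markers present in the table was at 0 in every library.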

How the data were processed

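Small RNA of follicular fluid EVs was sequenced as 4 SUM and 4 WIN libraries. In CLC Genomics Workbench the authors removed adapters and low-quality bases, mapped to ARS-UCD1.2, assigned reads to miRBase entries at default settings and normalized by TMM. The submitters' processing notes also name Bowtie2 2.2.2 and DESeq2. The deposited values are a signal, TMM-adjusted CPM, whose columns do not sum to 1000000. Dividing each library by its smallest value above 0 gave whole reads for 100% of values (tolerance 0.001). This unit was assumed to be plain CPM when the test was chosen, and the test was kept.

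SUM was compared with WIN in limma 3.58.1 (R 4.3.3, eBayes with trend) on log2(CPM + 1) without a block, over the 243 miRNAs averaging more than 10 CPM, with Benjamini-Hochberg adjustment over all 243. A call needed a fold over 1.5 with an adjusted p under 0.1, after the methods of the study. The functions were checked on simulated counts. Ratios are differences of log2(CPM + 1), and single values were compared by exact two-sided permutation tests (Python 3.11.15, numpy 2.4.6, scipy 1.17.1). Since pools of 2 cows are the samples, p-values measure the spread between pools. The main tests treat the pools as independent, although the same animals served in both seasons and their pairing is not recorded.

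The members and lists were chosen with earlier results of these data known. Named were the members, the 3 miRNAs most correlated with each, called list members or otherwise up to 3 of the most abundant, and the pairs with the lowest, median and highest SD. The rule also named miRNAs that share seed bases with a member. It could not be applied without sequences, and miR-1271 was taken from general knowledge instead. Alternatives were other pseudocounts (0.5 and 5 CPM) and filters (none, 50 CPM), rescaling, edgeR 4.0.16, DESeq2 1.42.0, no trend, a replicate block and left-out libraries. Near-identical miRNAs whose reads the counting could split are uncertain.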

Additional observations from a re-analysis of the deposited data

Results flagged for a closer look

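In 16 sets of 4 libraries (the CPM of each member, the 3 ratios, the summed CPM and the miR-96 share, in each season), 3 held a library far from the others of its season, where chance flags about 1 in 20. WIN replicate 1 stood apart by its log2 ratio of miR-96 to miR-182, at -1.54 where the nearest WIN library had -2.96. It also stood apart by the miR-96 share of the cluster, at 9.84% where the nearest had 4.69%. SUM replicate 2 stood apart by its log2 ratio of miR-96 to miR-182, at -4.67 where the nearest SUM library had -3.58. The sets share reads and are not independent.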

How the results depend on the processing

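The season differences of miR-183 and miR-182 kept their negative sign and were not called under any of 11 alternatives (-0.46 to -0.19 and -0.50 to -0.28). That of miR-96 was negative under all 10 that could be run (-1.60 to -1.22, adjusted p = 0.075 to 0.33), since the filter at 50 CPM removed it. It was called by DESeq2 (-1.46) and after rescaling to equal sums (-1.60), which moved the median of all tested miRNAs from 0.02 to -0.17. Leaving out 1 library at a time gave -0.44 to -0.15 for miR-183, -1.71 to -1.17 for miR-96 and -0.53 to -0.06 for miR-182, with no call. It gave -0.16 to 0.12 for the log2 ratio of miR-182 to miR-183, -1.41 to -0.85 for miR-96 to miR-183 and -1.26 to -0.75 for miR-96 to miR-182. The last 2 passed (adjusted p = 0.043) only without SUM replicate 3. The miR-96 share differed by -3.74 to -1.82 points and the summed CPM by -247.8 to -78.8. Without the shallowest library of each season the share differed by -2.21 points (exact p = 0.10). The ratios of miR-96 to miR-183 and to miR-182 then differed by -1.15 and -0.88 (exact permutation, adjusted p = 0.15 each). The correlations ranged from 0.79 to 0.92 for miR-183 and miR-182, 0.37 to 0.65 for miR-183 and miR-96, and 0.23 to 0.76 for miR-96 and miR-182. Chosen after the data were seen, rescaling gave r = 0.74 for miR-183 and miR-96 (exact permutation, p = 0.036).

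Same-numbered libraries deviated together only in part (correlations of -0.02, 0.30, 0.06 and 0.24), so the numbers were not taken as pairs. With the replicate number as a block, miR-96 stayed at -1.43 (adjusted p = 0.12 from limma), and no call of the members changed. An exact sign-flip test by replicate number gave adjusted p = 0.375 for each ratio of miR-96 to a partner. That test cannot reach 0.05, since its smallest unadjusted p is 0.125. The block gave 15 higher and 10 lower calls over all miRNAs, where the comparison without it gave 13 and 6. Calls over all miRNAs were 6 and 2 without the filter, 17 and 11 at 50 CPM, 11 and 22 after rescaling, 20 and 15 with edgeR, 23 and 22 with DESeq2, 24 and 11 without the shallowest libraries, and 0 to 23 and 0 to 7 with 1 library left out. In the main comparison miR-132 (0.15, SE 0.37), miR-186 (0.25, SE 0.30) and miR-451 (-0.02, SE 0.74) differed from 0 by less than their SE. The sign turned for miR-132 after rescaling (-0.034), and for miR-186 (-0.059) and miR-451 (0.85) without the shallowest libraries. With 1 library left out it turned for miR-451 (-0.63 to 0.76) and miR-132 (-0.13 to 0.36). The cause of these changes was not tested. Depth limits miR-96 most, at 5 to 64 reads per library.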
